A study of Sus scrofa with 2 samples.

Results

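The miR-29 family was examined in small RNA sequencing of 2 pig skeletal muscles. The family was taken by name as every pig entry (ssc) numbered miR-29a, miR-29b or miR-29c, with all arms and copies and whatever the letter case. It comprised 6 of the 668 entries in the table, the 3p and the 5p arm of each miRNA. *Longissimus dorsi* (LDM) is a glycolytic muscle of the back and *psoas major* (PMM) an oxidative one under the loin. Both came from 3 untreated female Landrace pigs killed at 210 days of age after a fast of 24 h, and RNA of the pigs was mixed in equal amounts within each muscle before 1 library was made of it. No difference between the muscles therefore has a replicate check, and no p-value is given. Intervals are 95% exact intervals of the reads and cover counting error only.

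miR-29 is known as the miRNA family that restrains extracellular matrix genes. Its 3p arm is the guide strand that pairs with the messages of fibrillar collagens, elastin and fibrillin, and its loss is associated with fibrosis in heart, lung and muscle. The de novo DNA methyltransferases DNMT3A and DNMT3B are also known targets, and in mouse the family promotes myoblast differentiation, while an excess of miR-29b is linked to muscle wasting. Target messages were not measured in these libraries.

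The 3p arms are shown first because the seed, the part that pairs with target messages (positions 2 to 8 from the 5′ end), is what defines the family. Seeds are in capitals, T stands for U, and sequences are the consensus reads of the deposited table.
miR-29a-3p: tAGCACCAtctgaaatcggtt
miR-29c-3p: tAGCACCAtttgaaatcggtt
miR-29b-3p: tAGCACCAtttgaaatcagtgtt
PN-48-3p: tAGCACCAtttgaaatcagtgttt
The seed AGCACCA was found in 4 of 668 entries (0.599%), the 3 family guides and PN-48-3p, an entry under a name of the authors' own. PN-48-3p was identical to miR-29b-3p over 23 positions and had 1 further base at its 3′ end. miR-29a-3p and miR-29c-3p, both of 21 nt, differed at 1 position (C10T, reference base from miR-29a-3p, positions counted from the 5′ end). miR-29b-3p, of 23 nt, differed from miR-29a-3p at 3 of the 21 shared positions (C10T, G18A and T21G) and was 2 nt longer. A single base separates miR-29a from miR-29c, so the split of reads between them is uncertain. The last 6 bases of miR-29b-3p, AGTGTT, are known from human cells as a signal that directs this miRNA to the nucleus. No other entry of the table ended in these letters (1 of 668), although 7 of 668 (1.05%) held them at some position when the entry was read in its own sense only.

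The 5p arms come from the other side of the same hairpin and are usually discarded when the guide is loaded. They are shown because they share neither the family seed nor a seed with each other.
miR-29a-5p: aCTGATTTcttttggtgttcag
miR-29c-5p: aCCGATTTctcctggtgttcag
miR-29b-5p: gCTGGTTTcatatggtggtttaga
Each of these seeds belonged to 1 entry of the table. miR-29a-5p and miR-29c-5p differed at 3 of 22 positions (T3C, T11C and T12C), the first of them within the seed, whereas miR-29a-5p and miR-29b-5p differed at 8. In the RefSeq gene table of assembly Sscrofa11.1, MIR29B-1 lies beside MIR29A and MIR29B-2 beside MIR29C, and none of the 4 genes lies within another annotated gene. The miR-29b entries carry no copy number, so their names do not tell reads of the MIR29B-1 hairpin from reads of MIR29B-2.

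LDM held 7603850 reads and PMM 8556672 over all entries. The labels describe both samples as muscle, although their extraction text speaks of fat tissue. 6 skeletal muscle miRNAs fixed as markers (miR-1, miR-133a, miR-133b, miR-206, miR-499 and miR-208b) were all present and together held 686154 RPM in LDM and 511952 RPM in PMM, where RPM is normalised reads per 1000000 of the library. These markers did not share a direction. By normalised reads miR-1 was 1.56-fold, miR-133a 1.18-fold and miR-133b 1.24-fold higher in LDM. In contrast miR-499 was 12.2-fold, miR-208b 1.69-fold and miR-206 1.39-fold higher in PMM. The liver miRNA miR-122-5p was at 0.921 and 1.17 RPM, the 2 of 6 epithelial miRNAs found held 3.68 and 1.64 RPM, and the 2 of 3 nerve miRNAs found held 5.13 and 24.9 RPM.

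ssc-miR-29a-3p was the dominant member in both muscles. It had 33671 normalised reads in LDM and 38776 in PMM, and ranked 14 among all entries in either library. miR-29c-3p had 2026 in LDM and 2589 in PMM, and ssc-miR-29b-3p 970 and 791. The guide strands thus kept the order miR-29a, miR-29c, miR-29b in both libraries, with no overlap of their counting intervals. Of the 5p arms, miR-29c-5p had 578 normalised reads in LDM and 877 in PMM, and miR-29a-5p had 129 and 143. miR-29b-5p was close to the detection limit, with 5 reads in LDM, which equal 5.75 normalised reads, and 5 in PMM. The smallest value above 0 was 3 reads in PMM, and the smallest in LDM was taken to be 3 reads as well.

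**Figure D1:**
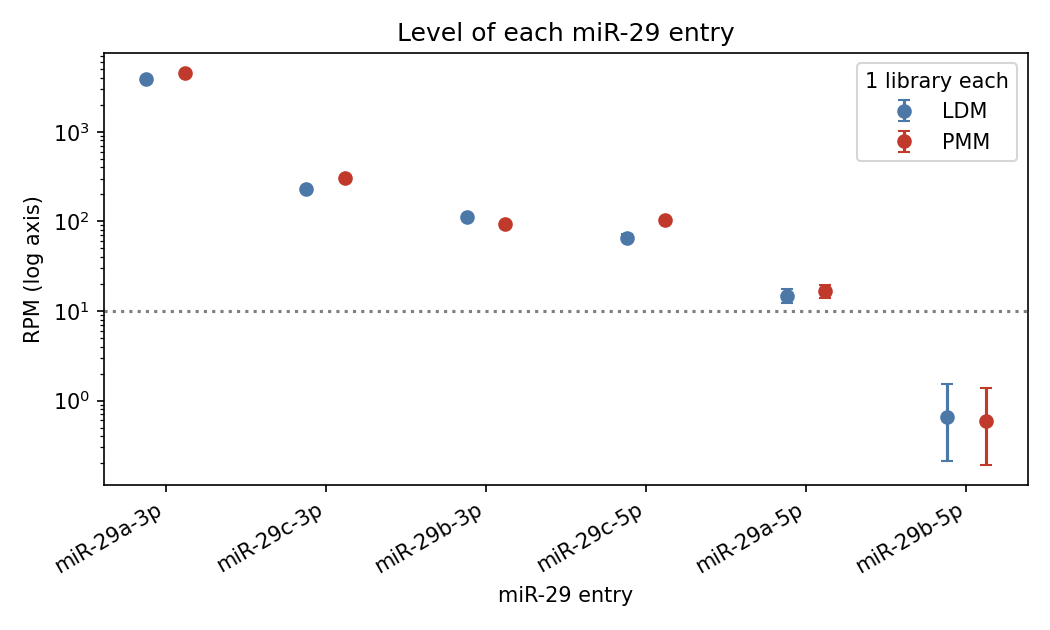
Level of the 6 miR-29 entries in LDM and PMM, in RPM on a log axis, 1 library per muscle. Bars are 95% counting intervals and are hidden by the point where narrow, the dotted line is the level filter of 10 RPM, and miR-29a-3p stands at 3848 RPM in LDM and 4532 RPM in PMM while miR-29b-5p stands under 1 RPM in both.

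How far the family differs between the glycolytic and the oxidative muscle was asked next. As deposited, the sum of the 6 entries was 37380 normalised reads in LDM and 43181 in PMM, 1.16-fold higher in PMM (1.14 to 1.17), and it became lower in PMM when ratios were centred on their median, scaled by a trimmed mean or scaled without the 10 highest entries. The family made up 0.427% of LDM and 0.505% of PMM. In tissue libraries such as these, fewer cells of a type and less of a miRNA per cell cannot be told apart. miR-29a-3p alone was 1.15-fold higher in PMM (1.13 to 1.17) with the same change of sign under these scalings, and the sum of the other 5 entries was 1.19-fold higher (1.13 to 1.24) as deposited and lower after centring. The ratio of the middle entry was 1.28 among the 185 entries that averaged 10 RPM or more over both libraries and 1.39 among the 91 that averaged 100 RPM or more. The family sum lay below both values, so relative to the second it was 1.20-fold lower in PMM.

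The members did not share a single ratio. miR-29b-3p was the member with a counting interval wholly below 1, at 1.23-fold higher in LDM (1.11 to 1.35). It was lower in PMM under every scaling tried, but these lower all ratios or barely raise them, so its sign could not change. miR-29c-3p was 1.28-fold higher in PMM (1.20 to 1.36), but lower after centring and when library totals left out the 10 highest entries. It was itself the middle of the 185 entries, with 92 below and 92 above, and so lies at that median by construction. miR-29c-5p had the highest ratio of the family, 1.52-fold in favour of PMM (1.36 to 1.70), and remained above 1 under every scaling. Its counting interval held the median of 1.39 used for centring, so after centring (1.09-fold) it was within counting error of 1. For miR-29a-5p (1.11-fold, 0.860 to 1.43) and miR-29b-5p (0.869-fold, 0.200 to 3.78) a difference was not detectable at this depth. The 3p arms together were 1.15-fold (1.13 to 1.17) and the 5p arms 1.44-fold higher in PMM (1.30 to 1.59) as deposited. The 3p sum, unlike the 5p sum, was lower in PMM under the 3 scalings named for the family sum. The 5p interval also held the median of 1.39, and relative to that median the 5p sum was 1.04-fold higher in PMM.

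**Figure D2:**
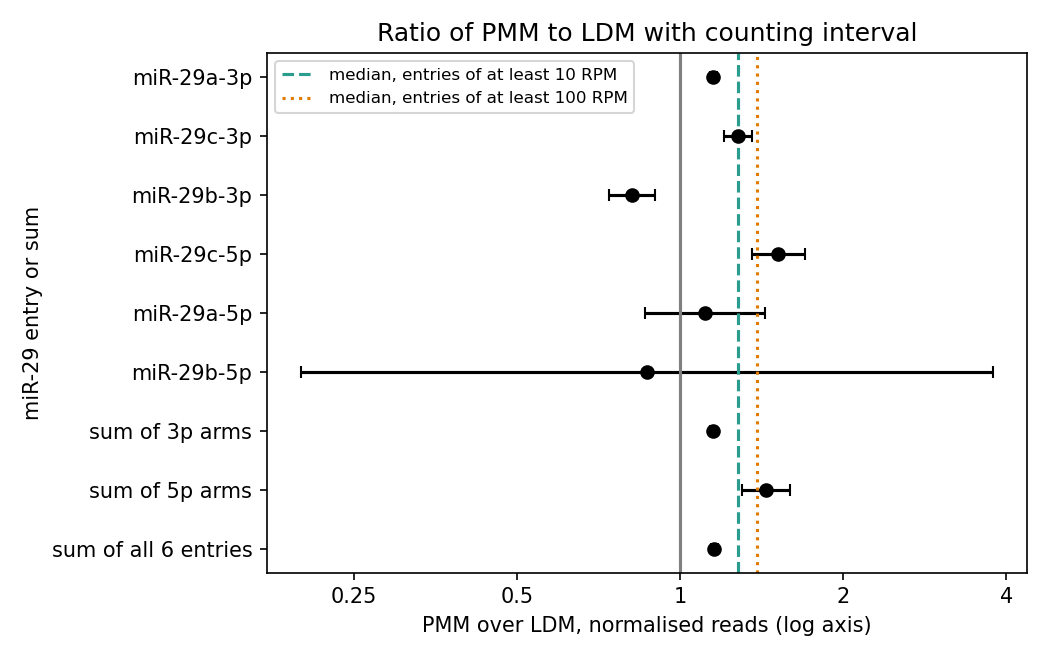
Ratio of PMM to LDM on a log axis for the 6 miR-29 entries and 3 sums, as deposited, with 95% counting intervals. The grey line is a ratio of 1 and the broken lines are the median ratios of all entries (1.28 and 1.39), and miR-29b-3p lies to the left of 1, as does miR-29b-5p with an interval that spans 1, while miR-29c-5p (1.52) lies to the right of both medians. Entries left of the second median are lower in PMM when ratios are centred on it, and the interval of miR-29c-5p spans it.

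5 of the 6 members averaged 10 RPM or more, and 0 of these were 2-fold apart in either direction on the log2 scale with a pseudocount of 1 RPM. Of all 185 entries at that level, 21.6% passed 2-fold in favour of PMM and 6.49% in favour of LDM. At 1.5-fold, miR-29c-5p was the single member counted as higher and 0 were counted as lower, against 40% and 13.5% of all entries. A counting interval above 1 was found for 3 of the 5 and one below 1 for miR-29b-3p, and of all 185 entries 61.6% and 24.3% had such intervals. The log2 ratios of the 5 had a median of 0.20, against 0.35 for all 185 entries. miR-29a-3p had 81 entries below it and 103 above it in log2 ratio. miR-29b-3p had 36 below and 148 above, and miR-29c-5p 112 below and 72 above.

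**Figure D3:**
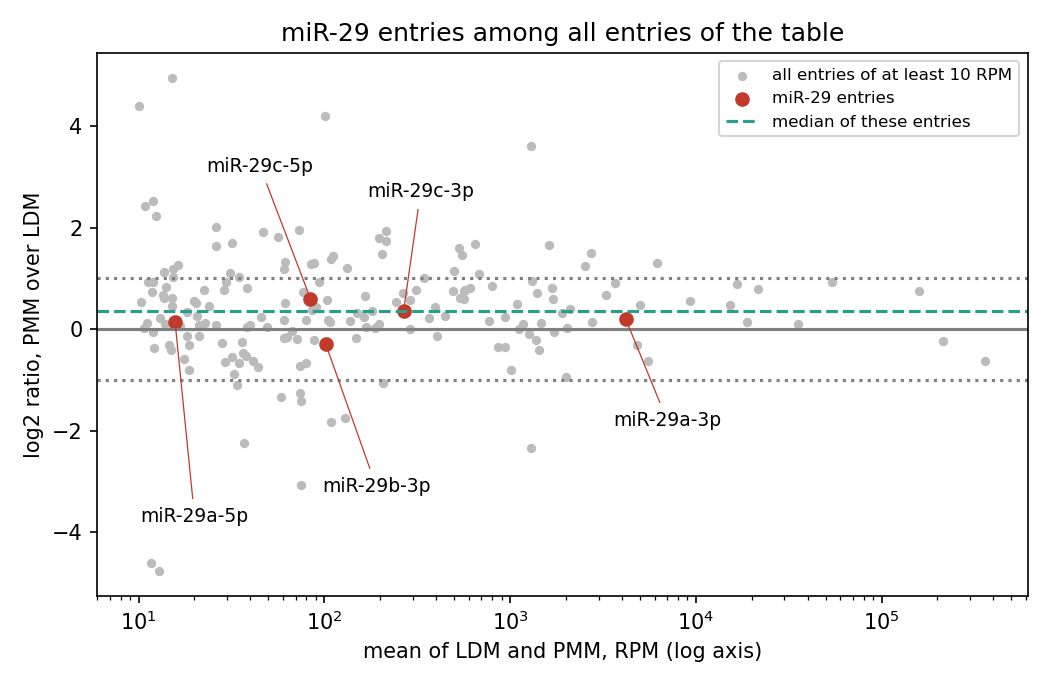
Log2 ratio of PMM over LDM, as deposited with a pseudocount of 1 RPM, against the mean level in RPM on a log axis for the 185 entries of at least 10 RPM. The 5 miR-29 entries at that level (red) lie between -0.29 and 0.60, inside the dotted lines that mark 2-fold, and the dashed line is the median of 0.35.

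Comparisons between members within a library do not depend on how the libraries were scaled. miR-29a-3p made up 90.1% of the family reads in LDM (89.7 to 90.4) and 89.8% in PMM (89.5 to 90.1), a difference within the counting intervals. Among the 3p arms, miR-29c-3p went from 5.53% of reads in LDM (5.28 to 5.78) to 6.14% in PMM (5.91 to 6.37), whereas miR-29b-3p went from 2.65% (2.47 to 2.83) to 1.88% (1.75 to 2.01). There were 2.09 reads of miR-29c-3p for each read of miR-29b-3p in LDM and 3.27 in PMM, a ratio 1.57 times as high in PMM (1.40 to 1.76). Per 100 reads of miR-29a-3p there were 2.88 of miR-29b-3p in LDM and 2.04 in PMM, which was 1.41 times as many in LDM (1.28 to 1.56). For miR-29c-3p the corresponding values were 6.02 and 6.68, or 1.11 times as many in PMM (1.04 to 1.18). The share of miR-29b among the guides was thus lower in the oxidative muscle, and that of miR-29c slightly higher, by more than the counting error. How these differences compare with those between pigs was not measured. MIR29B-2 and MIR29C are neighbouring genes, and the share of miR-29b reads that came from MIR29B-2 is not known. PN-48-3p, listed at 10.4 in LDM and 6 in PMM, was too low to alter the miR-29b-3p ratio, which was 0.815 with it added and 0.817 without it when taken with the pseudocount.

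The arms of the hairpins were also unequal. The 5p arm held 0.381% of miR-29a reads in LDM (0.314 to 0.459) and 0.367% in PMM (0.310 to 0.433). Of miR-29b reads it held 0.590% in LDM (0.192 to 1.37) and 0.628% in PMM (0.204 to 1.46). In miR-29c it held 22.2% in LDM (20.5 to 24.0) and 25.3% in PMM (23.9 to 26.8). As a result miR-29c-5p outnumbered miR-29a-5p, 4.48 reads to 1 in LDM and 6.13 to 1 in PMM, although its guide was outnumbered by miR-29a-3p, 16.6 to 1 and 15.0 to 1. In LDM miR-29c-5p was below miR-29b-3p, at 66.0 RPM (60.4 to 72.1) against 111 RPM (104 to 119). In PMM it was above it, at 102 RPM (95.8 to 110) against 92.4 RPM (86.1 to 99.1), where the counting intervals overlapped. Reads of miR-29c-5p per read of miR-29b-3p were 1.86 times as high in PMM (1.60 to 2.16). Within miR-29c, 28.5 reads of the 5p arm were found per 100 of the 3p arm in LDM and 33.9 in PMM, 1.19 times as high (1.05 to 1.35). The same ratio for miR-29a was 0.963 times (0.747 to 1.25), so that a difference was not detectable.

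These shares were set beside those of all pig miRNAs with an entry for each arm. In the 76 pairs with at least 100 RPM over both arms, the less abundant arm held a median of 0.360% of reads in LDM and 0.433% in PMM. miR-29a and miR-29b lay near that middle, with 36 and 34 of the pairs showing a higher share in LDM and 39 and 34 in PMM. The place of miR-29b is uncertain, since its share rests on 5 reads of the 5p arm in each library. miR-29c lay near the upper end, with 6 pairs above it in LDM and 7 in PMM. With the pseudocount, arms of 1 hairpin differed in log2 ratio by 0.24 in miR-29c, 0.063 in miR-29a and 0.21 in miR-29b, against a median of 0.58 over the 76 pairs. That median includes pairs with few reads in 1 arm, 10 of them at 0 in LDM, and so holds counting error. The value for miR-29b rests on 5 reads of its 5p arm per library and on the pseudocount. Its 5p reads per 3p read were 1.07 times as high in PMM (0.244 to 4.65), so a difference was not detectable. Some entries also occur in more than 1 pair.

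**Figure D4:**
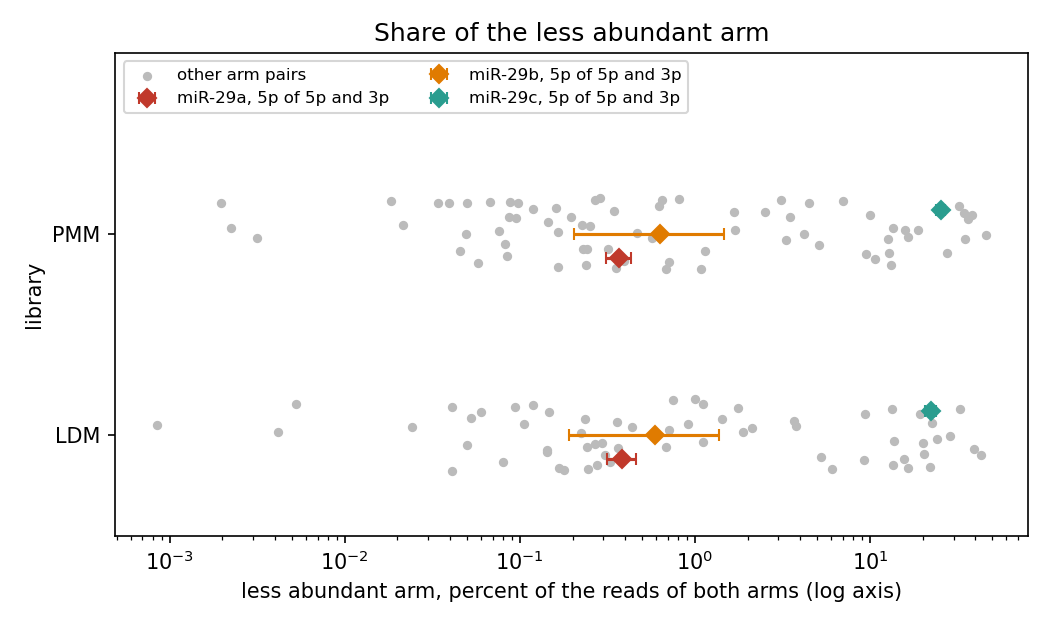
Share of the less abundant arm in the reads of both arms, in percent on a log axis, for miR-29a, miR-29b and miR-29c (diamonds with 95% counting intervals) and 73 other pairs of at least 100 RPM (grey, spread vertically at random), in 1 library per muscle. The less abundant arm of miR-29 is the 5p arm, which holds 22.2% and 25.3% in miR-29c and under 1% in miR-29a and miR-29b, and 10 pairs in LDM and 1 in PMM with an arm at 0 are not drawn. The intervals of miR-29b reach up to 1.37% in LDM and 1.46% in PMM.

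The ratios nearest to each guide strand were looked up among 84 other pig entries of at least 100 RPM, with likeness taken as the absolute difference in log2 ratio over the 2 libraries. With only 2 libraries many entries share a ratio, so nearness is a description, and ratios are as deposited. Nearest to miR-29a-3p were miR-19b-3p (1.16-fold higher in PMM), miR-361-5p (1.14-fold) and the red blood cell miRNA miR-451-5p (1.18-fold), all within 0.031 of it. Nearest to miR-29c-3p were miR-7-5p (1.28-fold), miR-331-3p (1.25-fold) and let-7g-5p (1.31-fold). Nearest to miR-29b-3p were the muscle miRNAs miR-133b-3p (1.24-fold higher in LDM) and miR-133a-3p (1.18-fold) and then miR-16-5p (1.27-fold), all within 0.053 of it.

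Families of several members were compared by the spread of their most abundant arms. The 3 miR-29 guides spanned 0.64 on the log2 ratio scale, from -0.29 to 0.35. The span was 1.16 over the 3 members of miR-148 and miR-152, 1.21 over 7 members of let-7 with miR-98, 1.92 over 5 of miR-30 and 2.88 over 3 of miR-181. These spans carry no test, and a span grows with the number of members.

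Other miRNAs with known links to the processes that miR-29 controls were described by list. Of 8 miRNAs linked to collagen or to restraint of fibrosis, 7 were found and all had at least 10 RPM, of which 2 passed 2-fold in favour of PMM and 0 in favour of LDM, beside the 21.6% and 6.49% of all 185 entries given above. Their median log2 ratio was 0.31 as deposited, against 0.35 for all entries, and turned negative after centring (-0.16) and without the 10 highest entries (-0.071). Counting intervals lay above 1 for 5 of the 7 and below 1 for 2, beside 61.6% and 24.3% of all 185 entries. The 2 below 1 were miR-133a-3p, known to target a collagen message in the heart (1.18-fold higher in LDM), and miR-30b-5p (1.34-fold). The second was named after its value was seen. Of the others, miR-101-3p was 2.48-fold, miR-30e-5p 1.59-fold and miR-30c-5p, known to target the matrix factor CTGF, 1.10-fold higher in PMM, the last of these lower after centring. miR-30a-5p was the other entry past 2-fold (2.83-fold), named after its value was seen. Of 4 miRNAs that target or are linked to DNA methyltransferases of the DNMT3 group, all were found and 0 passed 2-fold in either direction, with a median of 0.80 against 0.35 for all entries. miR-148a-3p was 1.91-fold, miR-143-3p 1.73-fold and miR-152-3p 1.76-fold higher in PMM, and miR-148b-3p was 1.17-fold higher in LDM. Of 4 miRNAs of myoblast differentiation 0 passed 2-fold in either direction, with a median of -0.28 against 0.35 for all entries, and of -0.75 after centring. Counting intervals lay below 1 for 3 of them, miR-1-3p, miR-133a-3p and miR-133b-3p, beside 24.3% of all 185 entries. miR-206-3p went the other way as deposited, at 1.39-fold higher in PMM. Its log2 ratio of 0.47 was itself the median used for centring, so after centring it showed no difference by construction. With 4 entries a list, the background of 21.6% and 6.49% allows little to be read from a count of 0.

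The fibroblast markers found were higher in PMM as deposited, and since collagen is made mainly by fibroblasts their values are given beside those of miR-29. Of 4 fibroblast miRNAs 3 were found, miR-21-5p, miR-199a-5p and miR-199b-5p, and their summed level was 6203 RPM in LDM and 10520 RPM in PMM. miR-199a-5p was 2.37-fold, miR-199b-5p 1.80-fold and miR-21-5p 1.39-fold higher in PMM. Counting intervals lay above 1 for these 3 and 1 passed 2-fold, beside 61.6% and 21.6% of all 185 entries. With 3 markers little can be read from such counts. The median log2 ratio of the 3 was 0.84, against 0.35 for all entries, and stayed above 0 after centring (0.37). miR-21-5p, with a log2 ratio of 0.47, lay at the median used for centring (0.47). The 3 endothelial miRNAs summed to 1068 and 1774 RPM, the 2 smooth muscle miRNAs to 17000 and 29221 RPM, the 3 of 4 leukocyte miRNAs found to 95.9 and 177 RPM and miR-451-5p of red blood cells to 853 and 1026 RPM. Within these sums miR-143-3p was 1.73-fold but miR-145-5p 1.09-fold higher in PMM, and miR-126-3p was 1.63-fold higher while miR-222-3p was at 0.882-fold (0.623 to 1.25). After centring, the median log2 ratio of members of at least 10 RPM was 0.15 for endothelium and 0.39 for leukocytes, but -0.013 for smooth muscle and -0.24 for miR-451-5p. The endothelial value leaves out miR-222-3p, which averaged 8.63 RPM and was the endothelial marker with a ratio below 1. None of the markers found in these lists was at 0 in either library. The part of these cells in the miR-29 levels was not tested.

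The direction of the family rests on the scaling of the libraries, since its ratio falls between 1 and the median of all entries. Before the pseudocount, centring lowered all log2 ratios by 0.47, the trimmed mean lowered them by 0.27 and totals that left out the 10 highest entries by 0.38. Library totals raised them by 0.032, too little to change the sign of miR-29b-3p. miR-29b-3p was lower and miR-29c-5p higher in PMM under all 5 scalings, while miR-29a-3p, miR-29c-3p and miR-29a-5p changed sign under at least 2 of them. After centring, the higher level of miR-29c-5p was within counting error.

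**Figure D5:**
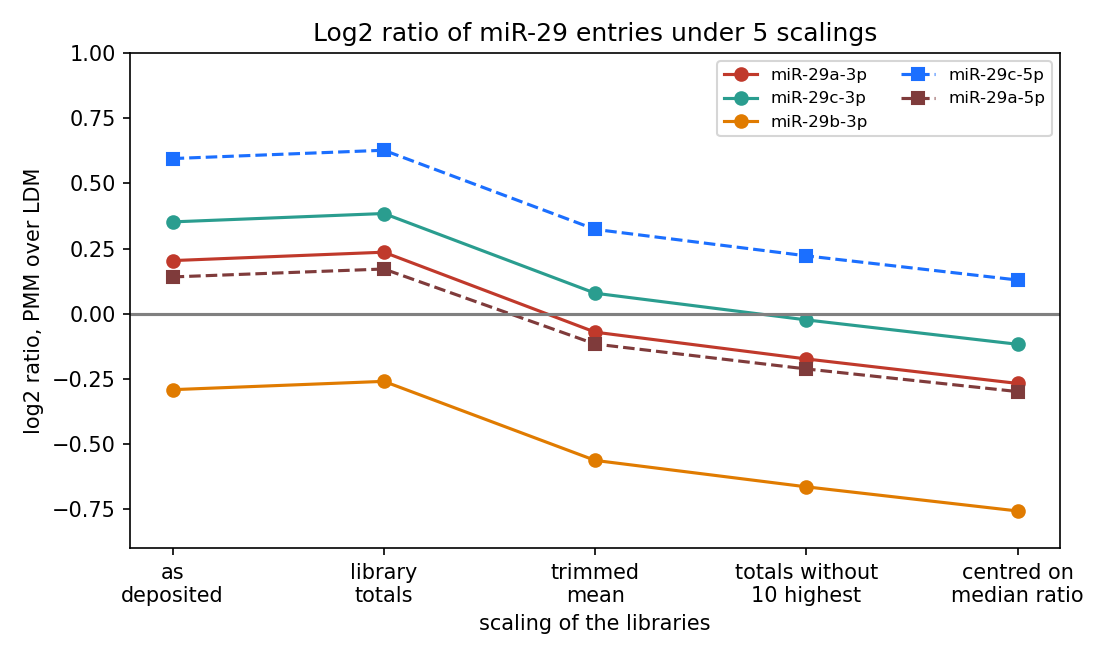
Log2 ratio of PMM over LDM, with a pseudocount of 1 RPM, for the 5 miR-29 entries of at least 10 RPM under 5 scalings of the libraries, 3p arms as circles and 5p arms as squares. miR-29b-3p stays below 0 throughout (-0.26 to -0.76) and miR-29c-5p above 0 (0.63 to 0.13), while miR-29a-3p, miR-29c-3p and miR-29a-5p cross 0, and the distances between entries are nearly the same under each scaling.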

How the data were processed

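Per entry the deposited table holds a consensus sequence, a length and a signal for each muscle, in reads normalised by the authors. Mapper, miRNA reference and normalisation method are not given in the sources used here, and the submitters' processing notes name the build Sscrofa 10.2. RNA of 10 to 40 nt was read single-end for 36 bp. In LDM all but 1 entry were whole multiples of 1.15 and in PMM all but 1 were whole numbers (tolerance 0.001 of a multiple), and no miR-29 entry was off these steps. Reads were recovered by this division. The step in LDM was set as its smallest value above 0 divided by 3, the smallest value in PMM, so the smallest count in LDM is 3 by construction. A column of the authors' own p-value in the deposited table was not used.

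Folds are ratios of deposited values with exact conditional binomial (Clopper-Pearson) intervals. Ratios between members have conditional exact intervals of the odds ratio. Log2 ratios carry a pseudocount of 1 RPM (8.65 normalised reads), which understates changes of low entries. Reads carried no molecular identifiers. With 1 library per muscle no count test was run. Level limits are the mean of both libraries in RPM. The rule names all miR-29 entries, entries with the seed, the 3 nearest ratios per guide and up to 4 members per list. Members and lists were chosen with earlier results of these data known. Each miRNA of a list was represented by its highest entry. RefSeq gene symbols matched all 4 miR-29 genes. Scripts were tested on simulated data. Software was Python 3.11.15 with scipy 1.17.1, numpy 2.4.6 and pandas 2.3.3, and figures were drawn with matplotlib 3.10.9.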

Additional observations from a re-analysis of the deposited data

How the results depend on the processing

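Scaling decided the sign of the family sum and of its most abundant member. The log2 ratios of miR-29a-3p, miR-29c-3p and the family sum (0.20, 0.35 and 0.21 as deposited) were -0.27, -0.12 and -0.26 with ratios centred on their median, -0.071, 0.078 and -0.066 with the trimmed mean, and -0.17, -0.024 and -0.17 with totals without the 10 highest entries. With library totals miR-29a-3p was 0.24 and the family sum 0.24. miR-29b-3p (-0.29 as deposited) was -0.76, -0.56 and -0.66 under centring, the trimmed mean and totals without the 10 highest. Each of these scalings shifts all ratios by a single factor, by construction. Pseudocounts of 0.1 and 10 RPM left every member within its counting interval, as did summing 3p arms only or every entry with the seed for the family sum, and PN-48-3p added to miR-29b-3p, which was chosen after the data were seen.

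Of entries at least 2-fold higher and lower in PMM (40 and 12) there were 84 and 35 with no filter, 19 and 4 among entries averaging 100 RPM or more, 74 and 25 at a limit of 1.5-fold and 21 and 26 after centring. The share of miR-29a-3p was 91.8% in LDM and 92.0% in PMM among 3p arms, and 91.8% and 92.0% among entries with the seed. Each value rests on 1 pooled library, so animal-to-animal spread is unknown, and leaving out a replicate was not possible. No paired analysis was possible because each muscle had 1 library of mixed RNA. miR-29b-5p, at 5 reads per library, limits any statement about that arm.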
